A study of Homo sapiens with 12 samples.

Results

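In PANC-1 cells, 143 genes combined many ribosome footprint (RF) reads with very little total RNA, beside 20069 other genes in the count table. They were chosen by their measured counts: at least 500 RF counts summed over 6 RF libraries and fewer than 3000 counts summed over 6 total RNA libraries, leaving out genes whose names begin with HIST or MT-. The 3 genes named as its examples are STAB1, BDH1 and CEACAM3. STAB1 is a scavenger receptor of macrophages and sinusoidal endothelium, BDH1 a mitochondrial enzyme of ketone body metabolism, and CEACAM3 a granulocyte receptor for bacteria. The set was compared with the 1378 genes that had the same RF minimum and 3000 or more RNA counts, called the RNA-rich genes here.

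PANC-1 is an established line from a human pancreatic duct carcinoma. The cells were given DMSO, the solvent control, or 50 nM rapamycin, an inhibitor of the kinase mTOR, for 60 min, with 3 replicates each, and every replicate gave an RF and a total RNA library (12 libraries). Nothing in the sources says whether the replicates were separate cultures, so p-values measure the spread between these samples. RF libraries held 278835 to 1574723 counts and total RNA libraries 78081241 to 94293744, so the RF values carry far more counting error. A count of 0 allowed up to 1.91 to 10.8 CPM (counts scaled to the library total) in an RF library and up to 0.0318 to 0.0384 CPM in an RNA library, for counting error only. The duct and epithelial marker list (KRT8, KRT18, KRT19 and others, 8 genes) summed to 7635 to 8027 RNA CPM, and 7 of its 8 genes had a mean of at least 1 FPKM.

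In ribosome footprinting, a nuclease digests the RNA that ribosomes do not cover, and the short protected pieces are sequenced and assigned to genes. Translation efficiency (TE) is the RF level of a gene over its RNA level. Pieces of ribosomal RNA, mitochondrial RNA and other structural RNA are cut by the same nuclease and are known to be abundant in such libraries. The authors' methods remove reads on ribosomal RNA sequences before alignment and keep uniquely aligned reads.

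The 143 genes held 12.8% of all RF counts and 0.0201% of all RNA counts. Their share of RF counts was 10.9%, 14.3% and 13.6% in DMSO 1 to 3 and 12.6%, 11.4% and 10.9% in rapamycin 1 to 3, a mean of 12.3% ± 1.45 (SD, n = 6 libraries). The treatments overlapped in this share. The 10 genes with the most RF counts (DUOX1, CAND2, PHACTR1, CCDC105, STAB1, BDH1, AKAP3, IL12RB2, HOXD1 and MUC19) carried 47.9% of the RF counts of the set. Summed RF counts ran from 501 to 65897 with a median of 1462, and summed RNA counts from 13 to 2935 with a median of 381. RF counts exceeded RNA counts in 109 of the 143 genes and in 15 of the 1378 RNA-rich genes, although the RNA libraries were much deeper. These values follow from the rule and are a description.

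**Figure D1:**
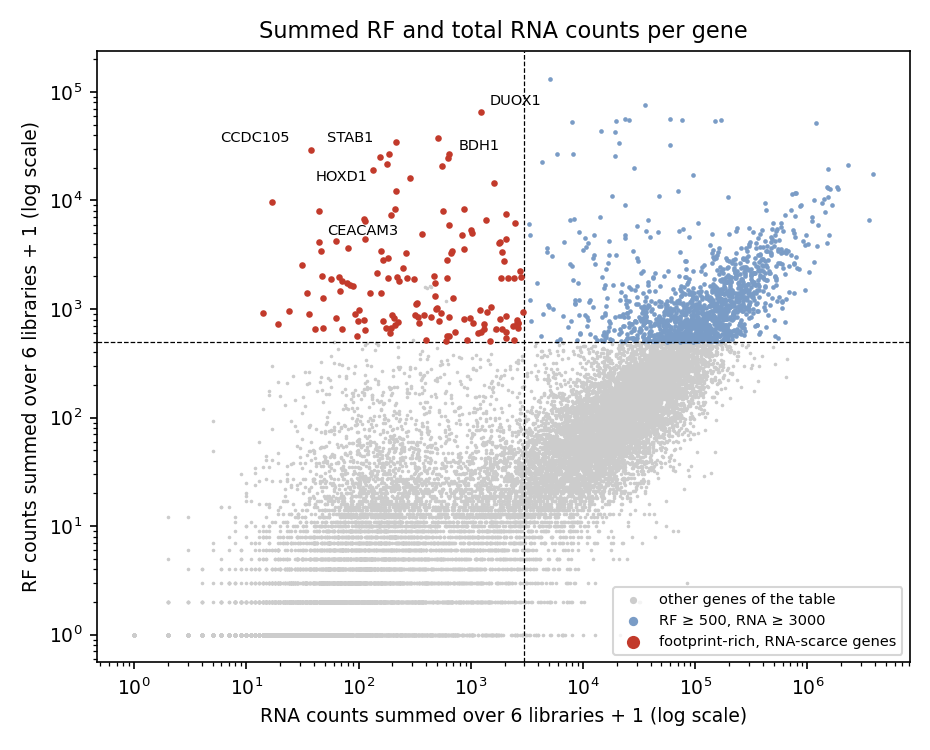
Summed RF counts (y axis, log scale) against summed total RNA counts (x axis, log scale), each plus 1, for every gene of the table; dashed lines mark the 500 RF and 3000 RNA thresholds. The 143 footprint-rich, RNA-scarce genes fill the upper left field, where the 8 HIST genes left out by name are among the grey points.

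At the edges of the rule, TFAP2B (501 RF counts) and CCDC163P (505) lay just inside the RF minimum, and KCNIP1 (496) and CALN1 (487) just outside it. PROB1 (2935 RNA counts) and DLG3 (2785) lay just inside the RNA maximum, and CGREF1 (3293) and HOMEZ (3359) just outside it. The 8 genes left out by name were all replication-dependent histone genes with 518 to 1626 RF counts, HIST2H4A having the most. The highest ratios of RF to RNA counts belonged to CCDC105 (28950 RF and 37 RNA counts), MTRNR2L7 (9707 and 16), MTRNR2L11 (8058 and 43), AKAP3 (25377 and 154) and PHACTR1 (34702 and 213).

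After the names of the set were seen, 14 genes were recognised as developmental or lineage transcription factors (HOXD1, PAX6, NKX6-1, SOX11 and others), 12 as channels or transporters (such as TRPM8, the cold-sensing channel), 8 as immune receptors or signals, and 5 as sperm, germ cell or cilium genes (such as AKAP3, an anchor protein of the sperm tail). These roles were not counted over the other genes of the table, so the numbers do not show that any role is particular to the set. Mean RNA levels per length were 0.0219 to 0.711 FPKM over the transcription factors, 0.0191 to 1.12 over the channels and transporters, and 0.0101 to 0.145 over the sperm, germ cell and cilium genes. The immune genes lay between 0.0191 and 7.39 FPKM, with HLA-F, a class I-like antigen, at the top. Over the whole set the median was 0.126 FPKM and 118 of 143 genes (82.5%) were under 1 FPKM. The RNA-rich genes had a median of 95.9 FPKM and 13 genes (0.943%) under 1 FPKM. All genes with RNA counts had a median of 2.84 FPKM and 43.7% under 1 FPKM. The rule chose on counts of the same RNA libraries, so these differences follow from it and are a description. In bulk RNA, fewer cells of a type and less RNA per cell cannot be told apart. The other myeloid markers, without STAB1 and CEACAM3, included 1 of 8 genes at 1 FPKM or more, the lysosomal gene CD68. ITGAM lay between 0.498 and 0.793 FPKM and CD14 between 0.426 and 0.728. PTPRC, LYZ, FCGR3A, CSF1R and MRC1 stayed at or under 0.215 FPKM in every library. These 8 genes summed to 108 to 125 RNA CPM, and CD68 alone stood at 104 to 120. The acinar, endocrine and red cell lists summed to at most 0.782 RNA CPM in any library, the endothelial list to at most 1.65.

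Several genes of the set had almost exactly the same RF count as another, unrelated gene in every library. STAB1 had 88, 3935 and 12651 RF counts in DMSO 1 to 3 and 9507, 351 and 193 in rapamycin 1 to 3. BDH1 had 89, 3910, 12643, 9504, 341 and 193 in the same order. AKNA, which is RNA-rich with 5835 RNA counts against 187 for STAB1 and 634 for BDH1, had 86, 3906, 12630, 9496, 336 and 191. Over all 6 libraries STAB1 and BDH1 differed by 47 counts in total (0.088% of their summed counts), and by no more than 25 in any library. STAB1 lies at chr3:52529354-52558511 on the plus strand, BDH1 at chr3:197236654-197300194 on the minus strand and AKNA on another chromosome, so they do not overlap. Their RNA counts spanned 31.2-fold.

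Pairs were counted as equal when their RF counts differed by less than the square root of their sum in each of the 6 libraries. This measure was chosen after the counts of STAB1 and BDH1 were seen, so it is a description with no test. Among genes with at least 1500 RF counts, 8 of 2485 pairs within the set were equal (0.322%), 10 of 27264 pairs of a set gene with an RNA-rich or excluded gene (0.0367%), and 10 of 73536 pairs outside the set (0.0136%). With a minimum of 500 RF counts, where counting error lets more pairs pass, the shares were 0.0985%, 0.00656% and 0.0175%. The 18 pairs that held a set gene at the higher minimum, with the pairs linked to them, formed 10 groups of 25 genes, 18 of them in the set, and RNA counts within a group differed between 3.35- and 778-fold. CEACAM3 (371, 411, 1112, 735, 1139 and 398 RF counts in DMSO 1 to 3 and rapamycin 1 to 3) was matched by C1orf233 (362, 395, 1087, 706, 1114 and 392). It was also matched by the RNA-rich CYB561D2 (365, 399, 1094, 727, 1144 and 402), and their RNA counts were 43, 1790 and 6705. The neural transcription factor SOX11 had 94, 194, 820, 472, 304 and 43 RF counts and 181 RNA counts, TMEM47 had 93, 194, 822, 469, 303 and 43 with 2135 RNA counts, and the DNA repair gene XPC had 95, 192, 850, 475, 308 and 46 with 14908 RNA counts. GDF7, a growth factor of the BMP family, and SIX2, a kidney progenitor transcription factor, each summed to 1987 RF counts and differed by at most 10 in a library. The other groups were ANKRD34C with COMMD1, to which MBP was linked, B3GALT4 with RAB11FIP5, GAL3ST3 with MAST1, TMEM79 with TMEM198, LHX6 with PILRA, and GFY with ADC and RCOR2.

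**Figure D2:**
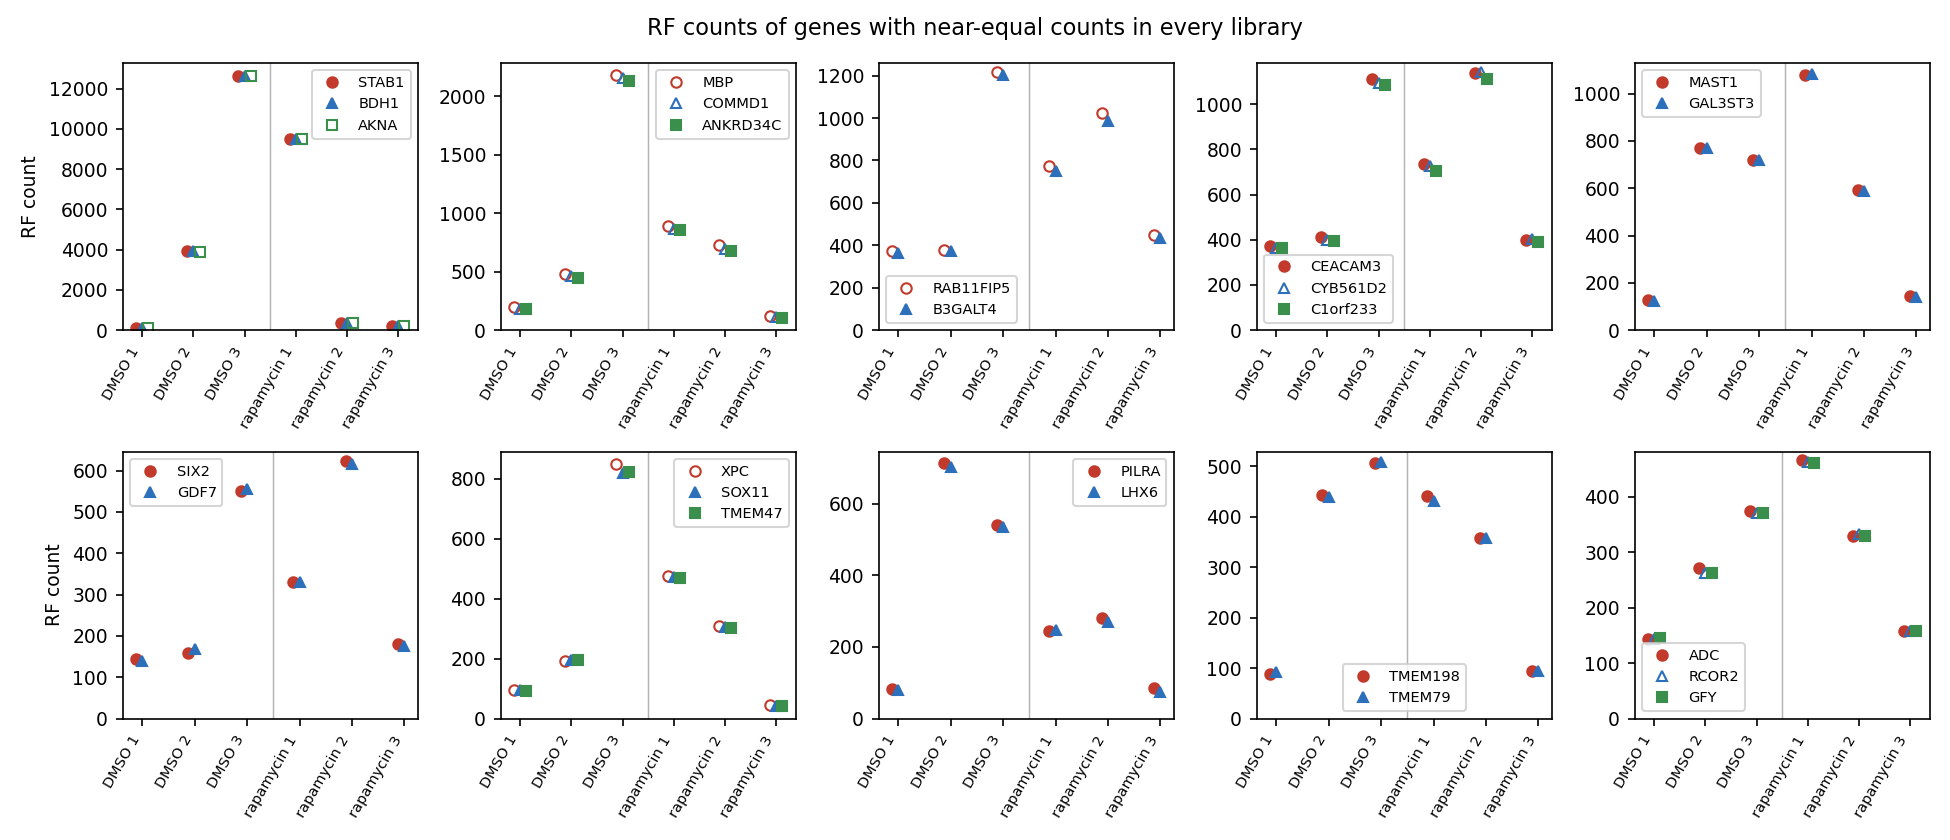
RF counts (y axis, linear from 0) of the 10 groups of near-equal genes in the 6 RF libraries (x axis, DMSO left and rapamycin right of the line); filled symbols are genes of the set and open symbols are genes outside it. In each panel the symbols of different genes lie close together in every library, and since counts are not scaled the heights also follow library size.

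The exons of these genes were compared with a ribosomal DNA repeat on an unplaced scaffold of GRCh37, in a window from 3000 bases before to 6500 bases after the start of its 5.8S copy. Short exact runs common to all genes of a group were present in some groups and not in others, and 3 examples are shown so that the matches can be seen. The sequences below are written 5′ to 3′ in the direction of the ribosomal RNA, with the run common to all genes of the group in capitals. The 3 genes of the group around CEACAM3 (chr19:42300519-42315592, plus strand) shared 13 bases found 3398 bases after the 5.8S start:
CEACAM3: gGCCGTCGCCGGCAtcgtgaccggg
C1orf233: GCCGTCGCCGGCAggtcctcctccg
CYB561D2: taccacGCCGTCGCCGGCAgtagag
ribosomal DNA: tacccgGCCGTCGCCGGCAgtcgag
The windows lay at chr19:42312879-42312903 (CEACAM3, plus strand, coding sequence or UTR depending on the transcript), chr1:1534580-1534604 (C1orf233, plus strand, antisense to its UTR) and chr3:50388547-50388571 (CYB561D2, minus strand, antisense to its UTR). Each 25-base window was placed around the run where it had the most bases matching the ribosomal DNA at the same offset. The line shown is the one for CYB561D2. CYB561D2 matched at 22 of 25 bases, CEACAM3 at 16 and C1orf233 at 15, the 13 bases of the run included. Of the 19545 genes of the table with annotated exons, these 3 were the only ones with this run, on either strand.

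The SOX11 group shared a 13-base run that lies 2275 bases after the 5.8S start, and again no other gene of the table had it:
SOX11: CCGAGGGAGCGAGcctctacgacga
TMEM47: gccCCGAGGGAGCGAGtccccgcgc
XPC: caggcacCCGAGGGAGCGAGcactg
ribosomal DNA: gggCCGAGGGAGCGAGacccgtcgc
The SOX11 window was in coding sequence at chr2:5833716-5833740, that of TMEM47 in a UTR at chrX:34675251-34675275 on the minus strand, and that of XPC in an exon of a non-coding transcript at chr3:14189258-14189282 on the minus strand. Windows were placed in the same way, and the ribosomal line is the one for TMEM47. With the run included, TMEM47 matched at 20 of 25 bases, SOX11 at 19 and XPC at 17. B3GALT4, a glycosyltransferase, and RAB11FIP5 shared 15 bases, 5400 bases after the 5.8S start, likewise found in no other gene:
B3GALT4: cggcCCCGGTGAGGCGGGGgctggg
RAB11FIP5: agcggCCCGGTGAGGCGGGGaggcg
ribosomal DNA: actgaCCCGGTGAGGCGGGGgggcg
The B3GALT4 window was antisense to coding sequence (chr6:33245319-33245343, minus strand) and that of RAB11FIP5 in a UTR (chr2:73340052-73340076, minus strand). Here the ribosomal line is the one for RAB11FIP5, which matched at 21 of 25 bases, and B3GALT4 matched at 19.

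The GFY group shared 13 bases with the ribosomal DNA, a run held by 9 genes of the table. TMEM79 and TMEM198 shared 12 bases (7 genes of the table), as did LHX6 and PILRA (6 genes), the last in the 5.8S copy itself. Longer common runs outside the ribosomal DNA were present too. Beside a shorter run in the ribosomal DNA, GDF7 and SIX2 had 17 bases in common and TMEM79 and TMEM198 had 15 that were not in the ribosomal DNA window and, like the runs shown, were in no other gene of the table. In the SOX11 and GFY groups the longest common run, 14 bases, held the ribosomal run and 1 base more. STAB1, BDH1 and AKNA had no common run of 12 bases in the ribosomal DNA. Their longest common run, 14 bases that 630 genes of the table hold, was found in 7SL-derived sequence. Without STAB1, BDH1 and AKNA shared a 34-base run, and a 14-base run that is also in the ribosomal DNA. This pair is 1 of the 12 counted below. STAB1 shared at most 16 bases with BDH1 and 14 with AKNA. ANKRD34C, COMMD1 and MBP had no run of 12 bases common to all 3. GAL3ST3 and MAST1 shared only 12-base GC-rich runs with the ribosomal DNA, which 225 to 544 genes of the table also held. Over pairs, 12 of the 18 equal pairs with a set gene (66.7%) shared a 13-base run that is also in the ribosomal DNA, against 143 of 2137 other pairs within the set (6.69%) and 2455 of 97434 other pairs of genes with 1500 RF counts (2.52%). At 14 bases it was 3 of the 18 pairs (16.7%), against 3.98% and 1.12%. The 12 pairs came from 6 of the 10 groups, and 9 of them from the groups of CEACAM3, SOX11 and GFY. Pairs within a group are not independent, and run length and GC content were not matched. The tables hold counts per gene without read positions, so whether RF reads lay on these runs was not tested.

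The humanin-like genes, nuclear copies of a piece of the mitochondrial 16S ribosomal RNA gene that encode short peptides, formed the largest named family of the set. Of 13 MTRNR2L genes in the table, 7 were in the set (53.8%, against 0.708% of all genes): MTRNR2L4, MTRNR2L7, MTRNR2L10, MTRNR2L11, MTRNR2L3, MTRNR2L6 and MTRNR2L9, with 19183 to 3309 RF counts and 16 to 1020 RNA counts. MTRNR2L8, MTRNR2L12, MTRNR2L2 and MTRNR2L1 had 10938 to 132751 RF counts and more than 3000 RNA counts, and only MTRNR2L5 (263 RF counts) and MTRNR2L13 (206) fell short of the RF minimum. MTRNR2L10 and MTRNR2L3 had 497 and 473 RF counts in DMSO 1, 2363 and 2288 in DMSO 2, 2209 and 2134 in DMSO 3, 1959 and 1909 in rapamycin 1, 896 and 880 in rapamycin 2, and 352 and 336 in rapamycin 3. The 2 genes followed each other in every library, although they lie on chromosomes X and 20. MTRNR2L10, MTRNR2L3 and MTRNR2L6, the family members of the set with annotated exons, shared exact runs of 62, 45 and 55 bases with the mitochondrial 16S gene MT-RNR2. The start of the longest is shown with the shared bases in capitals, MTRNR2L10 at chrX:55208117-55208146 on the minus strand:
MTRNR2L10: cggagtAAGTTACCCTAGGGATAACAGCGC
mitochondrial MT-RNR2: cggaacAAGTTACCCTAGGGATAACAGCGC
The run covers mitochondrial positions 2921 to 2982. Reads of the mitochondrial RNA and of these nuclear copies can be split by alignment, so their counts are uncertain. By name, zinc finger genes gave 4 genes of the set (of 516), keratin-associated and CEACAM genes 1 each, and olfactory receptors, keratins, protocadherins and histones outside the HIST names none. Counts are likewise uncertain for near-identical nuclear copies in the set: GSTT2 and GSTT2B (826 and 832 RF counts), EIF3CL and EIF5AL1.

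Taken over all classes, long matches to structural RNA were less frequent in the set than in the RNA-rich genes, while some single classes were more frequent. Exons of 135 of the 143 genes were in the annotation, 129 of them protein-coding. Their median exon length was 5417 bases (5230 in the RNA-rich genes, 4455 in all genes) and their median GC content 53.3% (48.1% and 48.5%). An exact run of 25 bases with a structural RNA of another place was present in 58 genes (43%), fewer than in the RNA-rich genes (64%) and in all genes (50.5%). Most of it was 7SL sequence, the source of Alu repeats: 40% of the set, 62.2% of the RNA-rich genes and 49.3% of all genes, led by DUOX1, PHACTR1 and BDH1. No gene of the set had 25 bases in common with the ribosomal DNA, against 0.517% of RNA-rich genes. A 20-base run was present in 10 genes (7.41%, against 5.32% and 5.02%), led by MAST1, GDF7 and DLG3. A 15-base run was present in 47.4% of the set, 36.4% of the RNA-rich genes and 29.6% of all genes. For 5S and 5.8S gene copies the 25-base run was found in SLC1A6 and CHST6 (1.48%, against 0.591% of RNA-rich and 0.379% of all genes). For the mitochondrial genome it was found in the 3 humanin-like genes (2.22%, against 1.03% and 0.0972%). Annotated small RNA genes overlapped exons of 2 genes of the set (1.48%, against 6.73% of the RNA-rich and 2.44% of all genes): the microRNA MIR4787 within DOCK3 and 8 bases of MIR4279 opposite PDZD2. No snoRNA, snRNA or ribosomal RNA gene overlapped an exon of the set. Transfer RNA genes were not analysed here.

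RF levels of the set varied between replicate libraries more than those of the RNA-rich genes. The median coefficient of variation (CV) within a treatment, on TMM-scaled CPM, was 35.2% against 20.7%. The highest library exceeded the lowest at least 10-fold in CPM in 17 of 143 genes (11.9%) against 21 of 1378 (1.52%). Among genes with 1500 or more RF counts, where counting error is smaller, median CVs on total counts were 35.3% and 14.9%. STAB1 had 290, 4466 and 8034 RF CPM in DMSO 1 to 3 and 7571, 443 and 692 in rapamycin 1 to 3, so that each treatment held both high and low libraries. CCDC105, a coiled-coil protein of sperm, followed with 867, 9170, 6607, 7299, 872 and 1244 RF CPM. AKAP3 reached 16621 RF CPM in DMSO 2 and 4576 in DMSO 3, and stayed between 124 and 191 in DMSO 1, rapamycin 2 and rapamycin 3, with 2642 in rapamycin 1. IL12RB2, an interleukin receptor chain of T and NK cells, was highest in DMSO 2 (13265 RF CPM) and lowest in rapamycin 2 (284). HOXD1, a body-axis transcription factor, was highest in rapamycin 3, with 3727, 2770 and 3919 RF CPM under DMSO and 2936, 6511 and 10268 under rapamycin. DUOX1, an oxidase that makes hydrogen peroxide, was steadier, with 10916, 8818, 16708, 12369, 12884 and 9909 RF CPM, and so was the mucin MUC19, with 4330, 3399, 4086, 3490, 5885 and 3680. Within each of these genes the DMSO and rapamycin libraries overlapped.

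In 25 genes of the set (17.5%) all 3 larger RF libraries (DMSO 2, DMSO 3 and rapamycin 1) lay above all 3 smaller ones in CPM, against 6.31% of the RNA-rich genes; they included STAB1, BDH1, CCDC105, AKAP3, CAND2 and INSM1. In 31 genes (21.7%, against 9.36%) the larger libraries lay below, among them CEACAM3, GDF7, SIX2, B3GALT4, PGC and MN1. A few genes were nearly confined to other libraries. FAM19A5 had 446 and 738 RF counts in rapamycin 2 and 3 and 6 to 34 in the other 4 libraries. AVPI1 had 454 in rapamycin 2, 38 in rapamycin 3 and 3 to 10 elsewhere, while its RNA stayed between 2.27 and 3.05 FPKM. RAP1GAP2 had 569 RF counts in DMSO 2 and 7 to 70 elsewhere. The part of library size in these differences was not tested. The rule sums raw RF counts, so a gene high in the larger libraries, or in 1 library, could enter through them. How far this selection shaped the library pattern and the spread between replicates was not tested.

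**Figure D3:**
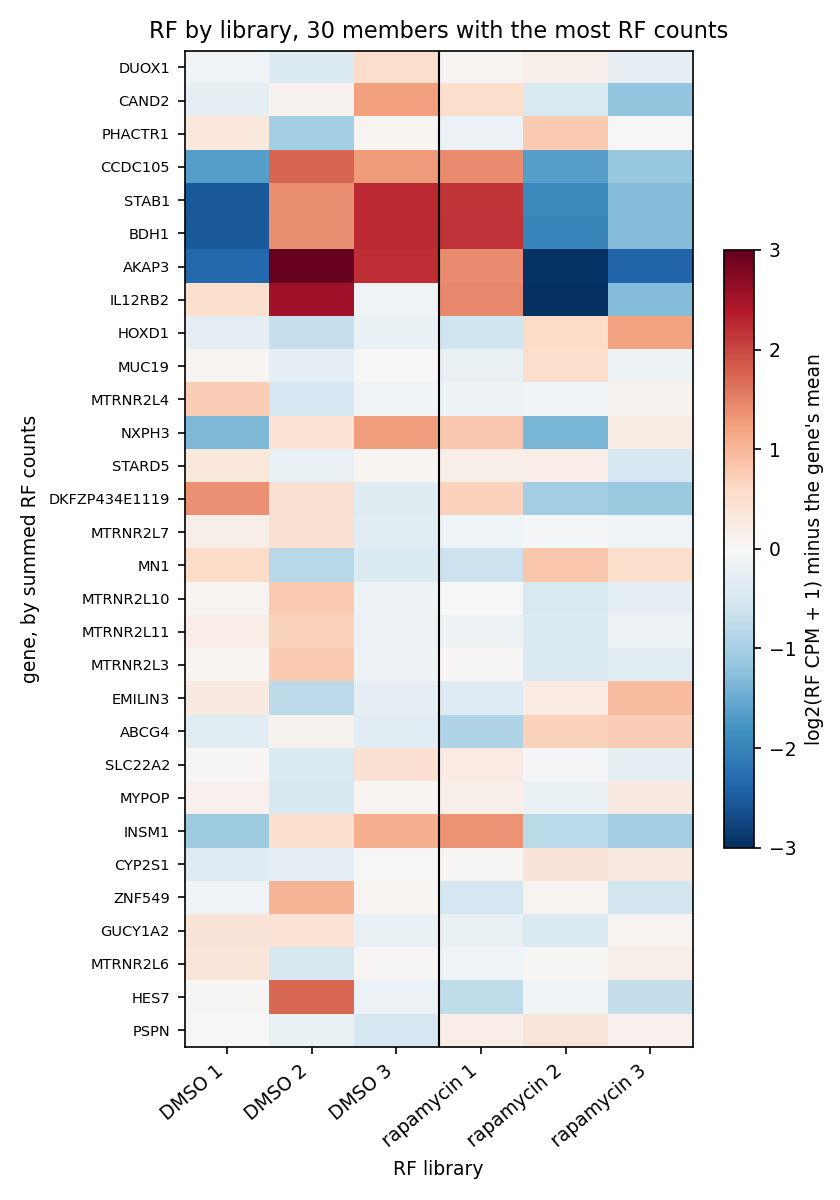
RF level by library of the 30 genes of the set with the most RF counts: colour gives log2(RF CPM + 1) minus the mean of the gene over 6 libraries, and the line parts DMSO from rapamycin. STAB1, BDH1, CCDC105 and AKAP3 are high in DMSO 2, DMSO 3 and rapamycin 1 and low in the other 3 libraries, while DUOX1, MUC19 and the humanin-like genes stay closer to 0.

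**Figure D4:**
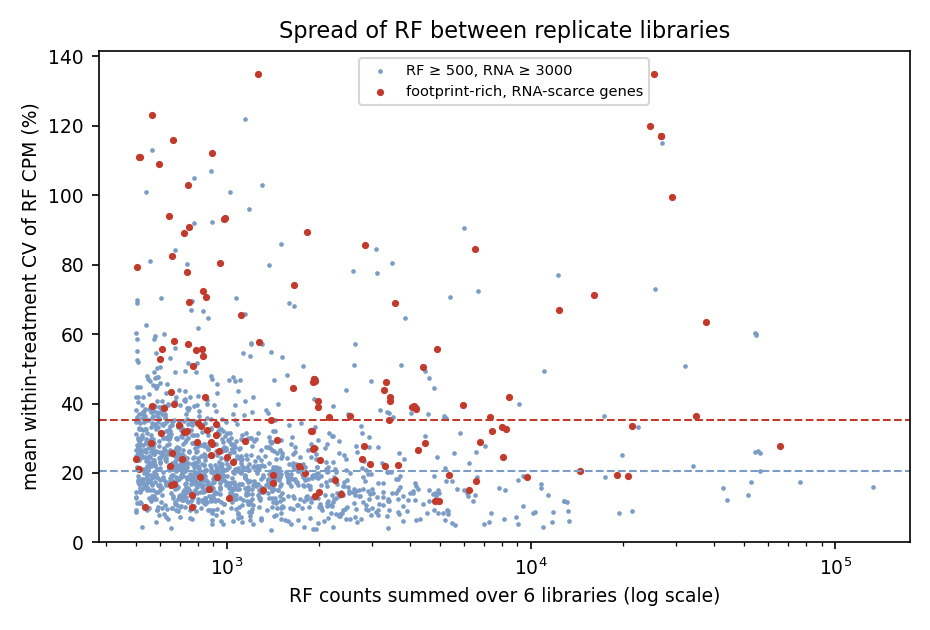
Mean CV of RF CPM within a treatment (y axis, percent, TMM-scaled) against summed RF counts (x axis, log scale) for the 143 genes of the set and the 1378 RNA-rich genes; dashed lines are the medians, 35.2% and 20.7%. The median of the set is the higher one, and CCDC105 (99.6%), STAB1 and BDH1 (117%), IL12RB2 (120%) and AKAP3 (135%) lie near the top among genes with many RF counts.

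The rule summed RF counts over both treatments, so a gene high in 1 treatment could enter through it alone. In 6 genes of the set (FAM19A5, CHST6, NKX6-1, AVPI1, PAX6 and TFAP2B) the 3 DMSO libraries held under 250 RF counts together, and in 10 others the 3 rapamycin libraries did (ACBD4, PID1 and TRPM8 among them). In such genes the direction of an RF difference follows at least in part from the selection. The counts of calls below include them and are a description. In the RF libraries no gene of the set passed an adjusted p of 0.05 (edgeR quasi-likelihood test, Benjamini-Hochberg over 13343 genes, of which 0.00749% were called). At an unadjusted p under 0.05 there were 17 genes of the set (11.9%), 7 higher and 10 lower, where 3.72% of all genes tested passed. With DESeq2 none was called. Within the set, the smallest p among higher genes in the edgeR quasi-likelihood fit belonged to AC112721.1 (log2 fold change 0.97, SE 0.33), NXPE1 (0.86, SE 0.31) and TMEM117 (0.72, SE 0.32), all with adjusted p = 1. Among lower genes of the set, the smallest p in that fit belonged to TDRD12, a germ cell gene of transposon silencing (log2 fold change -1.19, SE 0.31), PID1 (-1.71, SE 0.47) and MTRNR2L11 (-0.62, SE 0.23), also with adjusted p = 1. Without DMSO 2 the log2 fold change was 0.57 for NXPE1, -1.04 for PID1 and -0.30 for MTRNR2L11, and without rapamycin 3 it was 0.42 for TMEM117. STAB1 and BDH1 had the same log2 fold change of -0.62 with SE 1.75 (edgeR adjusted p = 1), and without DMSO 3 both turned to 0.18 with SE 2.1. Without rapamycin 1 they stood at -3.10 and -3.12. CEACAM3 stood at 0.46 with SE 0.34, and between 0.20 (without DMSO 2) and 0.79 (without DMSO 1) when a library was left out. All 3 rapamycin libraries lay above all 3 DMSO libraries in 6 genes of the set and below in 3 (such as TDRD12, IHH and TNNC1), that is 4.2% and 2.1% of the set, where 9.73% of all tested genes had treatments that did not overlap. With no minimum beyond 1 count, edgeR called 4 genes of the set (HOXD1 higher, and ACBD4, IHH and PID1 lower) of 20 in all (0.113% of genes tested). ACBD4 and PID1 met the rule mainly through DMSO libraries, so their lower direction follows from their selection.

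For TE and for total RNA no gene of the set or of the table was called by edgeR (0% of 13329 and 0% of 19630). In TE, 23 genes of the set (16.1%) had an unadjusted p under 0.05, against 12.6% of all tested, 2 higher and 21 lower. In total RNA it was 20 genes (14%), against 8.32%, 19 higher and 1 lower. The median log2 change of the set was -0.07 in RF, 0.42 in RNA and -0.81 in TE, beside 0.02, 0.02 and -0.06 over all genes tested. Other genes with as few RNA counts had medians of 0.09, 0.71 and -0.57, so their RNA and TE medians moved the same way. In 82 of the 143 genes (57.3%) DMSO 1 and DMSO 2 were the lowest 2 RNA libraries, as in 63.3% of other genes with few RNA counts and 2.69% of RNA-rich genes, and 20 genes of the set (14%, against 22.1% of other genes with few RNA counts) were at 0 in those libraries and above 0 in all others. Without DMSO 3, edgeR called 58 genes of the set higher in RNA, beside 3899 genes of the table called (20.1% of those tested), and 24 lower in TE, beside 398 (3.19%). Without rapamycin 1 it called 1 gene of the set in TE, AVPI1, higher (5 genes of the table, 0.0395%). DESeq2 called 9 genes of the set in TE (1 higher, AVPI1, and 8 lower, CEACAM3, EVX1, GFY, SLC1A6, SPTBN4, TDRD12, TFAP2B and TRPM8) of 1236 genes (9.31% of those tested), and 2 in RNA of 31 (0.158%). AVPI1 met the rule through rapamycin libraries, so its direction follows from its selection. TRPM8 met it mainly through DMSO libraries, so its lower direction follows at least in part from its selection. The same holds for TRPM8 and PID1 among the 24 genes called lower in TE without DMSO 3. The homeobox gene EVX1 had 0, 0.0106 and 0.102 RNA CPM under DMSO and 1.6, 1.97 and 0.22 under rapamycin, and the neural crest factor TFAP2B had 0.159, 0.0744, 0.453, 2.74, 3.16 and 0.603. In both genes all rapamycin libraries lay above all DMSO libraries, and rapamycin 3 was closer to DMSO 3 than to the other rapamycin libraries.

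A second RNA measure was deposited. Per uniquely aligned count, cuffnorm gave a median normalized fragment signal of 0.235 in the set, 0.387 in the RNA-rich genes and 0.363 in all genes with RNA counts. The ratio was under 0.1 in 26 genes of the set (18.2%) and in 22 RNA-rich genes (1.6%), but also in 13.2% of all genes with RNA counts. The lowest were AC011239.1, whose 35 counts stood beside a signal listed at 0, MTRNR2L10 (0.0105), MTRNR2L3 (0.0112), the matrix protein gene EMILIN3 (0.0139, with 2054 counts) and IL12RB2 (0.0161, with 626 counts). The highest were EIF3CL (3.32), GSTT2B (0.96), EIF5AL1 (0.798), HLA-F (0.657) and PRAF2 (0.586), the first 3 of which have near-identical copies.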

How the data were processed

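RF and total RNA of PANC-1 cells were analysed from the deposited tables. The authors removed short RF reads and reads on ribosomal RNA, aligned to GRCh37 with HISAT2, and deposited uniquely aligned read counts per protein-coding gene (featureCounts; the strand setting is not given in the sources used here). For total RNA the authors also deposited cuffnorm FPKM values and normalized fragment signal per gene (Cufflinks 2.2.1). Their own TE ratios, log2 fold changes and p-values from RiboDiff, a column named for FPKM that holds mean control RNA counts, and the isoform tables were not used. Groups came from the sample labels.

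Members and lists were chosen with earlier results of these data known. Counts were fitted on the whole table with edgeR 4.0.16 (R 4.3.3; TMM within library type, robust quasi-likelihood, genes with at least 10 summed counts of each type used) and, as an alternative, DESeq2 1.42.0; for TE, the effect of treatment was allowed to differ between RF and RNA in one model. RiboDiff, the method of the study, was not run. The fits were tested on simulated data. Exon features came from GENCODE v44lift37 on GRCh37, which matched 19545 of 20212 genes; runs were exact matches on either strand to structural RNA of another place. The reference is not repeat-masked, so the longest homopolymer stood for low complexity. Python 3.11 with pandas 2.3.3 and pysam 0.24.0 was used.

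Named genes were STAB1, BDH1 and CEACAM3, the 10 members with the most RF counts, the 5 highest RF to RNA ratios, the top 3 members per class of structural match, called members or else the 3 smallest RF p-values in each direction, the 2 genes on each side of a threshold, and the 5 lowest and highest cuffnorm ratios; the equal-count genes, the role groups and the genes singled out for their library pattern were chosen after their values or names were seen. Some genes and a sequence are not reported here.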

Additional observations from a re-analysis of the deposited data

How the results depend on the processing

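The number of genes that met the rule was 143, and it was 215 with an RF minimum of 250, 83 with 1000, and between 131 and 148 without single replicates. RF calls over the table numbered 1, and 0 with DESeq2 size factors in edgeR or with a minimum of 50 counts, 5 with the DESeq2 Wald test, 20 with a minimum of 1 count (4 of them in the set, with HOXD1 at 0.81 and PID1 at -1.7 past the threshold) and between 0 and 5 without single replicates. With the replicate block they numbered 6, none in the set. TE calls rose from 0 to 1236 with the DESeq2 Wald test (9 in the set) and lay between 0 and 398 without single replicates (0 to 24 in the set), the highest without DMSO 3. RNA calls rose from 0 to 31 with the Wald test (2 in the set) and lay between 0 and 3899 without single replicates (0 to 58 in the set), again highest without DMSO 3. The labels do not say that replicate numbers pair DMSO with rapamycin, so the block was not taken as a pairing. Deviations of same-numbered RF libraries had r = -0.53, -0.39 and -0.27 over 1529 genes, and those of differently numbered RF libraries lay between -0.12 and 0.49. Same-numbered RNA libraries had r = -0.01, 0.05 and 0.08. The part of library size in these values was not tested. In TE the block was each DMSO or rapamycin replicate and called 0 genes.

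Of 187 fold changes of 17 named genes under alternatives, 6 changed sign, all when a replicate was left out: STAB1 (range -3.1 to 0.18), BDH1 (-3.12 to 0.18) and DUOX1 (-0.3 to 0.18), each at 0.18 without DMSO 3, PHACTR1 (-0.03 without rapamycin 2, up to 0.48) and MUC19 (-0.2 without rapamycin 2 and -0.01 without DMSO 2, up to 0.19). The share of RF counts, the 25-base runs, the CV and the equal-count pairs with a set gene (18, then 18 to 20 without single libraries, 23 with a minimum of 500 counts, 27 with a limit of 2 square roots) stayed within 1.5 times. Equal pairs outside the set did not: they went from 10 to between 14 and 44 without single libraries (highest without DMSO 2), 168 at 500 counts and 208 at 2 square roots. The higher share of equal pairs among pairs that held a set gene was therefore not kept at every setting, as at 2 square roots. The median FPKM was 0.193 when the highest library was taken, small RNA overlaps fell to 1 on the same strand, and equal pairs with a common ribosomal DNA run fell from 12 to 3 at 14 bases; the equal-count settings were chosen after seeing the data. The cause of these changes was not tested. RF fold changes rest on 3 libraries a treatment with few counts in the smallest.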
